A study of Mus musculus with 8 samples.

Results

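The genes examined were 10 Wnt ligands, represented by 1 row each, among the 26165 rows of an expression array table from mouse embryonic molar epithelium. They were chosen by Ensembl identifier as Wnt3, Wnt4, Wnt5a, Wnt6, Wnt7a, Wnt7b, Wnt9b, Wnt10a, Wnt10b and Wnt11, and all 10 of the 10 identifiers were found in the table. The 8 arrays came from mandibular molar epithelium at E13.5, the bud stage of tooth development, freed from the underlying tissue with dispase. Each array held RNA of 1 pool of 5 embryos of the same genotype, with 4 pools of Foxi3 conditional knockout (cKO) and 4 pools of wild type. The cKO carried K14-cre43, a Cre recombinase driven by a keratin 14 promoter that is active in epithelium, together with a floxed Foxi3 allele and, by the series' design text, a null Foxi3 allele. The wild-type pools carry the genotype label Foxi3+/floxed, so both groups carry a floxed allele. That label names neither the Cre nor a null allele, and whether the controls carried the Cre is not stated, so the comparison may also hold the Cre and the null allele, which cannot be told apart from the deletion. The Foxi3 protein is a transcription factor of the forkhead family.

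Wnt proteins are lipid-modified secreted signals that bind Frizzled receptors, and with the co-receptors Lrp5 and Lrp6 they stabilise beta-catenin, which activates target genes together with TCF/LEF factors. Other Wnt signals act on cell shape and movement without beta-catenin. In the tooth germ, epithelial Wnt signals take part in forming the placode and the enamel knot and in exchanging signals with the dental mesenchyme, and human WNT10A mutations cause missing teeth.

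Values are log2 expression made with RMA, so a difference of 1 is a doubling of signal. Median expression was 5.25 to 5.30 on 7 arrays and 5.44 on wild-type replicate 2, which differed most from the others. That array was the highest of the wild-type arrays for 7 of the 10 ligands, and for 46.2% of all rows. Neither Foxi3 itself nor markers of epithelium, mesenchyme or blood were analysed here, because the identifiers of other genes were not tied to names, so the deletion and the cell makeup of the pools were not checked. In pooled tissue, fewer cells expressing a ligand and less RNA per cell cannot be told apart. The probes differ between genes, so levels are compared between genotypes and not between ligands.

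Of the 10 ligands, 1 rose in the cKO (Wnt3, 1.64-fold) and 1 fell (Wnt7a, 1.32-fold), each at a limma adjusted p under 0.05. Among all 26165 rows, 1.31% were called at this threshold, 0.688% higher and 0.619% lower. Without the dimmest 40% of rows, which held none of the 10 ligands, 503 of the fewer rows tested were called. The share called was thus higher among rows as bright as the ligands. The count of 2 ligands fell to 1, Wnt3, when any single array was left out, and to 0 with the replicate number as a block, while the 342 rows called became 119 to 303 and 18. The split of all called rows, 180 higher and 162 lower, became 131 and 65 after median centring of the arrays. The other 8 ligands did not pass. Among these, Wnt10a, Wnt10b and Wnt9b had differences between 0.20 and 0.28 on the log2 scale, while Wnt4, Wnt5a, Wnt6, Wnt7b and Wnt11 differed by less than 0.1. The median difference was −0.015 over the 10 ligands and −0.018 over all rows, and the median size of difference was 0.129 and 0.065. The ligands' median difference thus lay close to that of the array, with 5 ligands above 0 and 5 below.

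**Figure D1:**
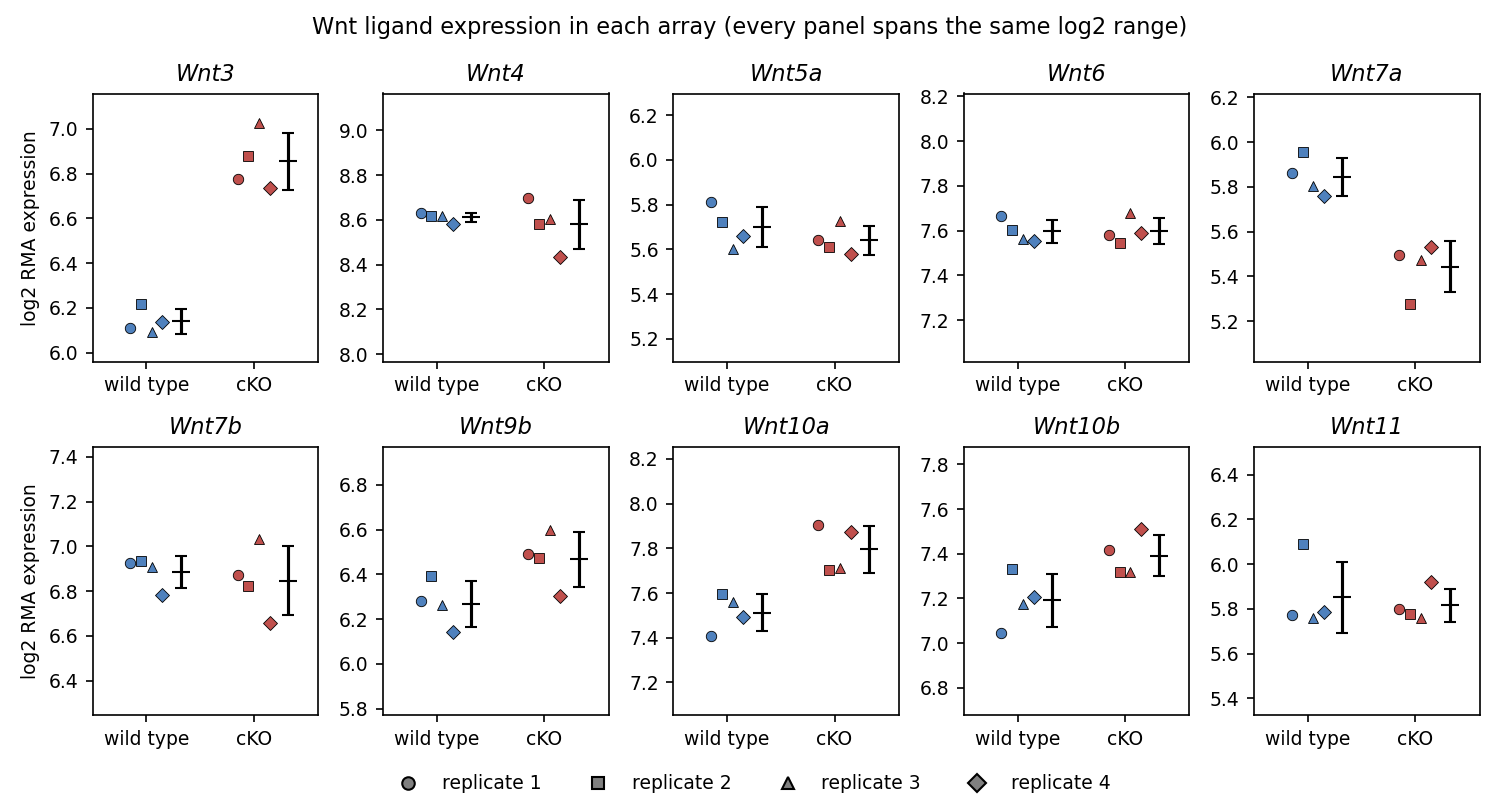
Log2 RMA expression of the 10 Wnt ligands in each of the 8 arrays, with wild-type pools in blue, cKO pools in red, a marker shape for each replicate number, and the mean and SD (n = 4) as bars; every panel spans the same log2 range. Only in the panels of Wnt3, Wnt7a and Wnt10a do the genotypes stand apart without overlap.

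Wnt3 (ENSMUSG00000000125) is a beta-catenin-activating ligand that the mouse embryo needs to form the primitive streak, and it is also expressed in skin and tooth epithelium. Its log2 expression was 6.11, 6.22, 6.09 and 6.14 in wild-type replicates 1 to 4 and 6.78, 6.88, 7.02 and 6.74 in cKO replicates 1 to 4. Every cKO pool was above every wild-type pool, and the lowest cKO value lay 0.52 above the highest wild-type value. The means were 6.14 ± 0.06 (SD, n = 4) in wild type and 6.85 ± 0.13 (SD, n = 4) in the cKO, which differed by 0.72 (SE 0.07, 95% interval 0.56 to 0.87, limma adjusted p = 0.00342). By p, Wnt3 stood at rank 34 of the 26165 rows. When 1 array at a time was left out, the difference ranged from 0.66 to 0.75 and the limma adjusted p from 0.00823 to 0.0213. The call ended under a replicate block (limma adjusted p = 0.0592), although no label states that equal numbers are pairs.

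The 250 bases before the Wnt3 start site are shown because Wnt3 had the largest difference of the 10 ligands and the only rise that passed. RefSeq places them at chr11:103773925-103774174 of GRCm38.p6, on the plus strand. Capitals mark GC boxes (GGGCGG, both strands) and a CCAAT box (CCAAT, both strands).
Wnt3: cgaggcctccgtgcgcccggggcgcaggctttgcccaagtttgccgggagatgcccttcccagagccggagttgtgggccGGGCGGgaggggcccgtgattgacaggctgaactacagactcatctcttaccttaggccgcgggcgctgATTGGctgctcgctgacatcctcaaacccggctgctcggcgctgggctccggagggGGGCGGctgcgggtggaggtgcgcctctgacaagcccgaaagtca

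Wnt7a (ENSMUSG00000030093), which patterns the dorsal side of the mouse limb from the ectoderm and is expressed in several epithelia, went the opposite way. Its log2 expression was 5.86, 5.96, 5.81 and 5.76 in wild-type replicates 1 to 4 and 5.50, 5.28, 5.47 and 5.53 in cKO replicates 1 to 4. All cKO pools were below all wild-type pools, by at least 0.23, and cKO replicate 2 was the lowest. Wnt7a had the lowest mean signal of the 10 ligands, at percentile 55.6 of all rows. The means were 5.85 ± 0.09 (SD, n = 4) in wild type and 5.44 ± 0.11 (SD, n = 4) in the cKO. The cKO minus wild-type difference was −0.40 (SE 0.07, 95% interval −0.56 to −0.24, limma adjusted p = 0.0354). This call rested on all 8 arrays. Leaving out any 1 of them ended it, with limma adjusted p between 0.0623 (without wild-type replicate 2) and 0.105 (without wild-type replicate 1), while the difference stayed between −0.43 and −0.35. The replicate block ended it too (limma adjusted p = 0.238). A gene-by-gene linear model without shared variance also missed the threshold (Benjamini-Hochberg adjusted p = 0.0872).

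The 250 bases before the Wnt7a start site are shown as those of the ligand that fell. RefSeq places them at chr6:91411354-91411603 of GRCm38.p6, on the minus strand, and the same capitals are used.
Wnt7a: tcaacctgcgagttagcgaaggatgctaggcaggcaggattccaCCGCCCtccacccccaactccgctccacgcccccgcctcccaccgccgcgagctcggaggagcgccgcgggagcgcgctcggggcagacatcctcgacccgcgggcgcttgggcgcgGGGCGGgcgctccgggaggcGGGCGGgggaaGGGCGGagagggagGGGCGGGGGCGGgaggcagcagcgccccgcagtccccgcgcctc

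The Wnt3 window held 2 GC boxes and 1 CCAAT box, and the Wnt7a window held 6 GC boxes and no CCAAT box. RefSeq promoter entries were used for 7 of the 10 ligands, in 8 windows because Wnt11 has 2, and none was used for Wnt5a, Wnt7b and Wnt10a. The search left out any entry under a ligand's symbol on 1 set chromosome only, which held none of these 8 windows. The forkhead core TAAACA, searched on both strands, was in none of the 8 windows and in 12.0% of the 32851 windows of the same length in the table. The TCF/LEF core CTTTGA, searched on both strands, was in 1 ligand window, that of Wnt11 at 50 bases before the start site, and in 13.8% of all windows. A GC box was in 6 of the 8 windows and in 32.7% of all, and a CCAAT box in 2 of the 8 and in 33.8% of all. The ligand windows were rich in G and C, at 56.8% to 85.2%, against a median of 52.4% over all windows. Such matches describe letters only.

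**Figure D2:**
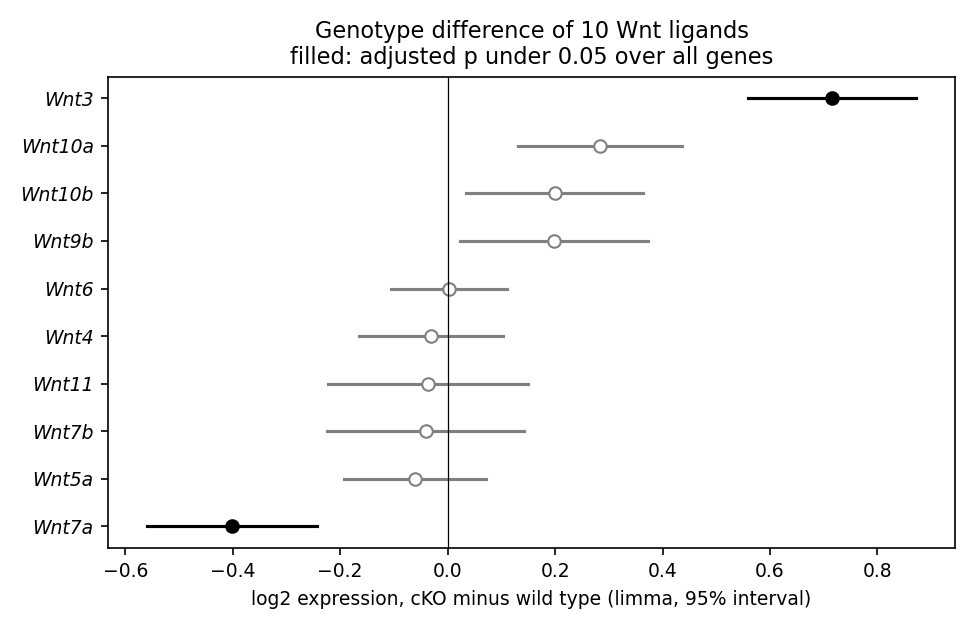
Difference in log2 expression (cKO minus wild type) of the 10 Wnt ligands, with the limma 95% interval of each, not adjusted for the number of genes. Wnt3 at 0.72 and Wnt7a at −0.40 are filled because they passed the threshold, and the other 8 are open.

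Wnt10a and Wnt10b are closely related ligands that act through beta-catenin and are known markers of tooth and hair placodes. Wnt10a (ENSMUSG00000026167) read 7.41, 7.59, 7.56 and 7.49 in wild-type replicates 1 to 4 and 7.90, 7.70, 7.71 and 7.87 in cKO replicates 1 to 4. The genotypes did not overlap, but the gap between the nearest pools was 0.11. Wnt10a averaged 7.51 ± 0.08 (SD, n = 4) in wild type and 7.80 ± 0.10 (SD, n = 4) in the cKO. Its difference of 0.28 (SE 0.07, 95% interval 0.13 to 0.44) did not pass over all genes (limma adjusted p = 0.116). It did not pass under any of the 17 alternatives run, in which the adjusted p ranged from 0.053 to 0.408. Non-overlap of the 4 cKO and 4 wild-type values, seen in 3 of the 10 ligands (2 higher, 1 lower), occurred in 7.85% of all rows, higher in 4.14% and lower in 3.71%.

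**Figure D3:**
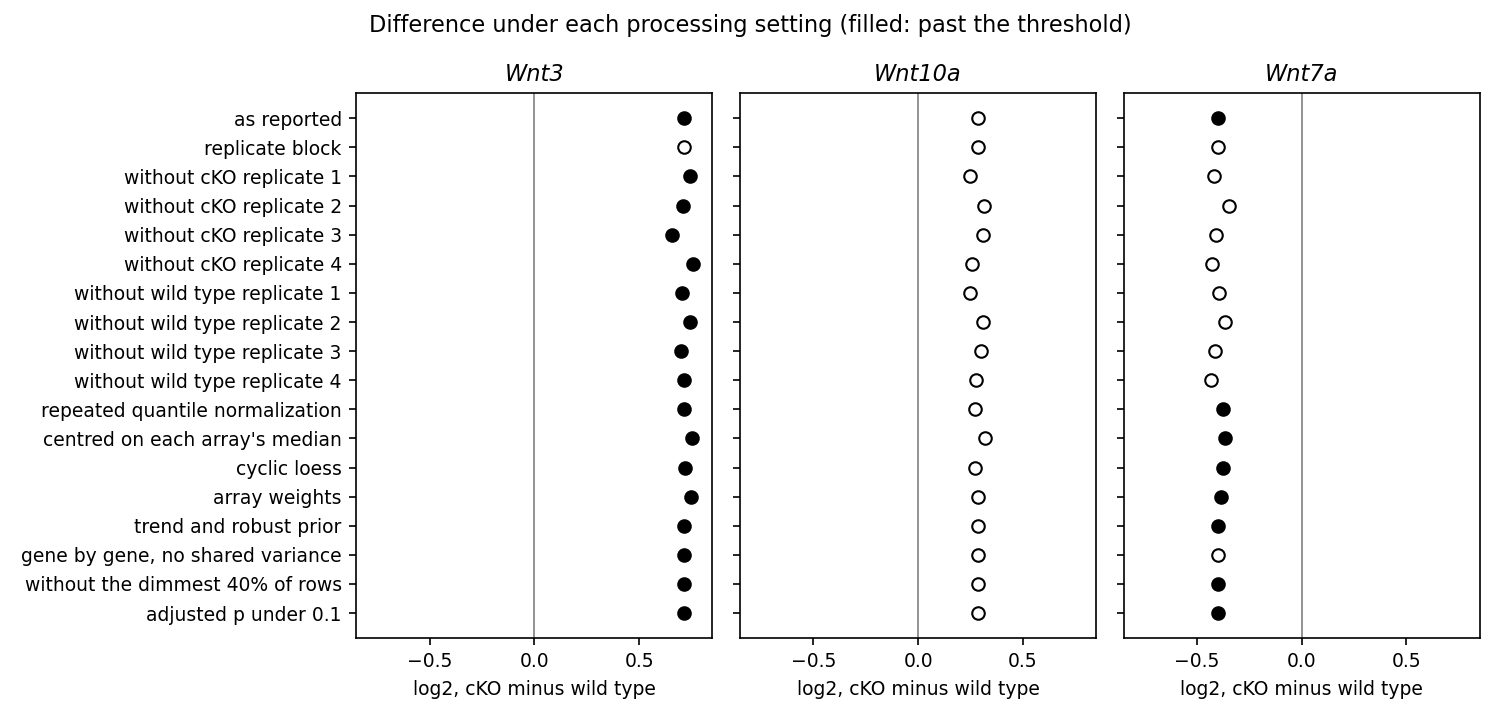
Difference in log2 expression (cKO minus wild type) of Wnt3, Wnt10a and Wnt7a under the reported setting and 17 alternatives, filled where past the threshold. Wnt3 lies between 0.66 and 0.75 with 16 of 17 past the threshold, Wnt10a between 0.25 and 0.32 without passing, and Wnt7a between −0.43 and −0.35 with 7 of 17 past the threshold.

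Wnt10b (ENSMUSG00000022996) read 7.05, 7.33, 7.18 and 7.21 in wild-type replicates 1 to 4 and 7.42, 7.32, 7.32 and 7.51 in cKO replicates 1 to 4. Only wild-type replicate 2 reached into the cKO range, where it exceeded cKO replicates 2 and 3. The difference was 0.20 (SE 0.07, 95% interval 0.03 to 0.36, limma adjusted p = 0.384). Without wild-type replicate 2 it was 0.25 and was not called either (limma adjusted p = 0.184).

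Wnt9b (ENSMUSG00000018486), which induces tubules in the developing mouse kidney and is needed for fusion of the upper lip, had a difference of like size. Its values were 6.28, 6.39, 6.26 and 6.14 in wild-type replicates 1 to 4 and 6.49, 6.47, 6.60 and 6.30 in cKO replicates 1 to 4. The ranges overlapped, since cKO replicate 4 was below wild-type replicate 2. The difference was 0.20 (SE 0.08, 95% interval 0.02 to 0.37, limma adjusted p = 0.430). At an unadjusted limma p under 0.05 there were 5 ligands, Wnt3, Wnt7a, Wnt9b, Wnt10a and Wnt10b, where 9.67% of all rows reached that level.

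Wnt6 and Wnt4 are expressed broadly in oral and dental epithelium. Wnt6 (ENSMUSG00000033227) spanned 7.56 to 7.66 in wild type and 7.55 to 7.68 in the cKO, and its difference was 0.0022 (SE 0.05, 95% interval −0.11 to 0.11, limma adjusted p = 0.992). Wnt4 (ENSMUSG00000036856), which also drives nephron formation in the kidney, spanned 8.58 to 8.63 in wild type and 8.43 to 8.70 in the cKO, so the wild-type values lay inside the cKO range. Its difference was −0.03 (SE 0.06, 95% interval −0.17 to 0.10, limma adjusted p = 0.897). The intervals leave room for differences of up to 0.11 (Wnt6) and 0.17 (Wnt4) in size, and both signs turned under some settings.

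Wnt7b (ENSMUSG00000022382) is known in the mouse as a ligand of the oral ectoderm next to the tooth-forming field, where it limits Shh expression. It spanned 6.78 to 6.93 in wild type and 6.66 to 7.03 in the cKO, the widest cKO spread of the 10 ligands (SD 0.15, n = 4). The difference was −0.04 (SE 0.08, 95% interval −0.22 to 0.14, limma adjusted p = 0.901). Wnt7b and Wnt7a are closely related proteins, and the interval of Wnt7a lay below that of Wnt7b, but one was not tested against the other. The sign for Wnt7b turned without cKO replicate 4.

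Wnt5a and Wnt11 are best known for signalling without beta-catenin, and Wnt5a is known in the tooth mainly from the dental mesenchyme. Wnt5a (ENSMUSG00000021994) spanned 5.60 to 5.81 in wild type and 5.58 to 5.73 in the cKO, with a difference of −0.06 (SE 0.06, 95% interval −0.19 to 0.07, limma adjusted p = 0.806). Wnt11 (ENSMUSG00000015957) read 5.77, 6.09, 5.76 and 5.79 in wild-type replicates 1 to 4 and 5.80, 5.78, 5.76 and 5.92 in cKO replicates 1 to 4. The value of wild-type replicate 2 was 0.30 above the next wild-type value. The difference was −0.04 with that array (SE 0.08, 95% interval −0.22 to 0.15, limma adjusted p = 0.914) and 0.04 without it (limma adjusted p = 0.845).

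Some of these ligands are neighbours in the genome. In RefSeq's GRCm38.p6 annotation Wnt9b and Wnt3 lie side by side on chromosome 11, with overlapping annotated spans and start sites on opposite strands. Their promoter windows lie apart, since that of Wnt9b ends at 103750071 and that of Wnt3 begins at 103773925. From these windows the 2 genes read away from each other, so the span of at least 1 of them reaches back past its window. Any other start sites of these 2 genes were not searched for motifs. Wnt6 and Wnt10a lie on chromosome 1 with 2 gene starts after that of Wnt6 and before that of Wnt10a. Which probes make up each row was not given in the sources used here. Within each array, log2 Wnt3 minus log2 Wnt9b was −0.13 ± 0.08 (SD, n = 4) in wild type and 0.39 ± 0.07 (SD, n = 4) in the cKO. The wild-type values reached up to −0.0056 and the cKO values began at 0.28, so the signal of Wnt3 moved apart from that of Wnt9b by 0.52. Log2 Wnt10a minus log2 Wnt6 was −0.08 ± 0.12 (SD, n = 4) in wild type and 0.20 ± 0.13 (SD, n = 4) in the cKO, 0.28 higher, with 0.035 between the nearest pools. Since Wnt6 itself differed by 0.0022, this contrast nearly repeats the Wnt10a difference, which did not pass. How often other gene pairs stand apart in this way was not computed. These pairs were set side by side with their values known and were not tested.

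**Figure D4:**
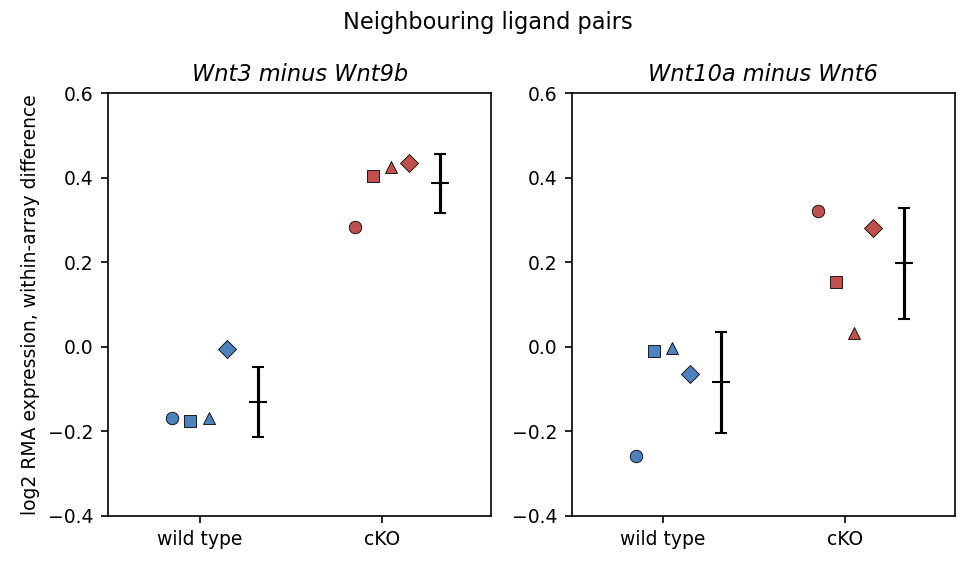
Within-array difference in log2 RMA expression between neighbouring ligands, Wnt3 minus Wnt9b and Wnt10a minus Wnt6, in wild-type (blue) and cKO (red) pools, with marker shapes for replicates 1 (circle), 2 (square), 3 (triangle) and 4 (diamond) and bars for the mean and SD (n = 4). The cKO means are 0.39 and 0.20 against wild-type means of −0.13 and −0.08.

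The pools of 1 genotype also differed among themselves. Among the cKO pools, replicate 3 was highest for 5 ligands (Wnt3, Wnt5a, Wnt6, Wnt7b and Wnt9b) and replicate 4 was lowest for 5 (Wnt3, Wnt4, Wnt5a, Wnt7b and Wnt9b) and highest for 3 (Wnt7a, Wnt10b and Wnt11). Over all rows, cKO replicate 3 was the highest cKO pool in 24.1%, and cKO replicate 4 was the lowest in 22.4% and the highest in 25.3%. The median SD of the ligands was 0.107 among the cKO pools and 0.084 among the wild-type pools, against 0.078 and 0.115 over all rows. Both wild-type medians include wild-type replicate 2, the array that differed most from the others, and medians without it were not computed. Wild-type replicate 4 was the lowest wild-type pool for 5 ligands, and in 22.9% of all rows.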

How the data were processed

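RNA of 8 molar epithelium pools (4 cKO, 4 wild type, by the genotype in the titles) was labelled with biotin and measured on Affymetrix arrays, per the labels' protocols. The log2 values deposited by the authors came from RMA, as the submitters' processing notes state; its version, the array model and the build are not given in the sources used here. This method corrects background, equalises probe distributions and summarises probes per gene, which narrows large fold changes. The files give no detection calls, so no ligand was called absent. All 10 lay above the 40th percentile of mean signal. The lowest of them, Wnt7a, had a mean of 5.64 over the 8 arrays, at percentile 55.6 of all rows. Precision is limited by the 4 pools per genotype.

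All 26165 rows were fitted with limma 3.58.1 in R 4.3.3 (lmFit, eBayes, genotype only, no further normalization or filter), two-sided, with Benjamini-Hochberg adjustment over all rows and a threshold of 0.05. Differences are cKO minus wild type, with moderated standard errors. The script was tested on simulated data with independent noise in each row and no array that stood out, unlike wild-type replicate 2. That test bears on the code and not on the calls reported here. P-values set the genotype difference against the spread between pools, moderated over all rows, and not against the spread between single embryos. The ligands and lists were chosen with earlier results of these data known. The naming rule took all 10 ligands. Symbols came with the list of identifiers; RefSeq's table held all 10 symbols but no Ensembl identifiers, so the fixed lists of other Wnt pathway genes and tissue markers were not used. Same-numbered pools had deviations correlated between −0.090 and 0.020 across genes and were not treated as pairs. The alternatives were median centring, cyclic loess, a second quantile normalization, a block for the replicate number, omission of each array in turn, array weights, another prior, no shared variance, a filter on dim rows and a threshold of 0.1.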

Additional observations from a re-analysis of the deposited data

Results flagged for a closer look

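In each genotype, each ligand was checked for a highest or lowest pool far from the other 3. Of these 20 checks, chance marks about 1 in 20. A single value stood out: Wnt11 in wild-type replicate 2 read 6.09, while the other wild-type pools lay between 5.76 and 5.79. The same array had the highest median expression of the 8 (5.44), and the part of that shift in the Wnt11 value was not tested.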

How the results depend on the processing

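Wnt3 was past the threshold in 16 of 17 alternatives (0.66 to 0.75) and Wnt7a in 7 of 17 (−0.43 to −0.35); neither changed sign, and no alternative called another ligand. With the replicate number as a block, not stated to mark pairs, limma called 0 ligands (adjusted p = 0.0592 for Wnt3 and 0.238 for Wnt7a; 5 ligands at an unadjusted p under 0.05) and 18 of all genes. Leaving out 1 array gave 1 ligand each time, Wnt3, and 119 to 303 genes; the model without shared variance gave 1 ligand, Wnt3, and 181 genes. In place of 2 ligands and 342 genes, median centring gave 2 and 196, and array weights 2 and 575. The filter on dim rows gave 2 and 503, out of fewer rows. The direction of 4 small differences was not stable. Leaving out 1 array gave −0.025 to 0.025 for Wnt6, −0.071 to 0.017 for Wnt4, −0.10 to 0.022 for Wnt7b and −0.072 to 0.042 for Wnt11. Wnt6 was −0.025, −0.0088 and −0.012 without cKO replicate 3, wild-type replicate 3 and wild-type replicate 4, −0.015 after repeated quantile normalization and −0.011 after cyclic loess. Wnt4 was 0.017 without cKO replicate 4 and 0.0030 after median centring. Wnt7b was 0.022 without cKO replicate 4. Wnt11 was 0.042 without wild-type replicate 2 and 0.023 with array weights. For none of these changes was the cause tested. The neighbour contrasts, with 12 alternatives added after seeing the data, ranged from 0.50 to 0.56 (Wnt3 minus Wnt9b) and 0.22 to 0.34 (Wnt10a minus Wnt6). Of these alternatives, median centring and the filter on dim rows cannot change a within-array difference.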
